A study of Rattus norvegicus with 4 samples.

Results

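The 2 mature arms of the rat microRNA miR-155, rno-miR-155-5p and rno-miR-155-3p, were measured in extracellular vesicles shed by cultured bone-marrow-derived macrophages. They were picked by name from the 758 rat miRNAs on the array, each carrying 2 probes of 8 spots, which gave 32 spots on each of 4 arrays. Small RNA was read on single-colour (Cy3) Agilent arrays, on which a labelled RNA binds a short probe and the brightness of the spot is recorded. The M1_OA group (n = 2 arrays) held vesicles of M1 macrophages from rats whose knee had been operated on to cause osteoarthritis, and the M0_sham group (n = 2 arrays) held vesicles of M0 macrophages from sham-operated rats.

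All animals were male wild-type Sprague-Dawley rats, operated on at 8 weeks of age. In the osteoarthritis group the medial meniscus of the right knee was destabilised and the anterior cruciate ligament was cut, whereas sham surgery was an incision alone. Femurs and tibias were taken 8 weeks later, CD45+ CD11b+ marrow cells were sorted, and both groups were grown in serum with 20 ng/mL M-CSF to day 7, the M0 state. Only the M1_OA cells then received 100 ng/mL LPS (lipopolysaccharide, from the bacterial outer membrane) with 20 ng/mL IFN-γ for 48 hours, followed by 5 mM ATP for 60 minutes. Surgery, polarisation and ATP therefore changed together, and their effects cannot be told apart. The labels number the replicates without saying whether they came from separate rats or cultures. The p-values therefore cover no more than the spread between these arrays, and that spread may be technical. The medium held serum, which can carry RNA of its own, and a change in the number of vesicles cannot be told apart from a change in RNA per vesicle.

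A miRNA gene is transcribed as a long primary RNA, cut to a hairpin and then to a short duplex. One strand of the duplex, the guide, is kept in an Argonaute protein and pairs with target mRNAs through its seed, while the other is usually degraded. In macrophages, Toll-like receptor ligands such as LPS are known to induce transcription of the miR-155 host gene through NF-κB and AP-1. The 5p arm is the usual guide of miR-155, and in mouse and human its known targets include the signalling inhibitors SHIP1 and SOCS1.

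The sequences are shown because the results turn on which arm of the hairpin, and which probe of an arm, gave signal. They come from RefSeq on assembly GRCr8, where the miR-155 hairpin lies at chr11:37261114-37261178 on the plus strand, within the span of the long non-coding RNA gene Mir155hg. Whether this is an exon or an intron was not examined. No miRNA gene lies close by, the nearest on that chromosome being Mir3588 at 7528 kb. The mature arms are in capitals in the hairpin, and the seed, bases 2 to 8, is in capitals in each arm.
hairpin: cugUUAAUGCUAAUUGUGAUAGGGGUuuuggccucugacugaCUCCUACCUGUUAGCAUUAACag
rno-miR-155-5p: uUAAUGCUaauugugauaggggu
rno-miR-155-3p: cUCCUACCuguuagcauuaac

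The 5p arm has 23 bases, at chr11:37261117-37261139, and the 3p arm has 21 bases, at chr11:37261156-37261176. Neither seed occurs at bases 2 to 8 of any other of the 693 mature rat miRNAs in the RefSeq table (0 shared for either arm), so neither arm has a seed family there.

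Each probe is the reverse complement of the 3′ part of its arm, and the 2 probes of an arm differ by 1 base at their 3′ end. That extra base is in capitals, in probe sequences that the scanner files themselves give.
18-base probe of rno-miR-155-5p: acccctatcacaattagC
17-base probe of rno-miR-155-5p: acccctatcacaattag
19-base probe of rno-miR-155-3p: gttaatgctaacaggtagG
18-base probe of rno-miR-155-3p: gttaatgctaacaggtag

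The longer 5p probe pairs with bases 6 to 23 of its arm and the shorter with bases 7 to 23. The 3p probes pair with bases 3 to 21 and 4 to 21. The longest run that a 5p probe shares with another mature miRNA of the RefSeq table is 8 bases, with rno-miR-101b-3p. For the 3p probes it is 9 bases, with rno-miR-199a-5p. That table holds 685 of the 758 miRNAs on the array, and the others were not compared.

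Signals below are background-subtracted intensities as the scanner software gave them, and they can be negative. Unless another scale is named, a miRNA's signal on an array is the sum over its probes of the mean of the spots that the software did not mark as outliers. A miRNA was called detected where more than 0.5 of the spots of at least 1 probe carried the flag for well above background. By that measure the M1_OA arrays detected 42 and 45 miRNAs, and the M0_sham arrays 23 and 13. In all, 703 of the 758 miRNAs were detected on no array and 11 on all 4, and the number of arrays limits every precision given here. All 4 arrays were on 1 slide, and each of its 2 rows and each of 2 scan sessions held 1 group alone, so the group cannot be told apart from the slide row or the scan session.

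rno-miR-155-5p, the guide arm, was detected on each M1_OA array and was not detected on the M0_sham arrays. Its summed signal was 72.4 and 60.3 on the M1_OA arrays, against -3.30 and -6.63 on the M0_sham arrays. Both M1_OA values were above both M0_sham values, and the M0_sham values were negative after the software's background subtraction. Such a gap between groups was not particular to this arm. It held for each of the 24 miRNAs detected on both M1_OA arrays and on no M0_sham array. The dimmest detected miRNA had a signal of 16.9 and 14.6 on the M1_OA arrays, and of 7.78 and 26.7 on the M0_sham arrays. rno-miR-155-5p was thus above the detection limit of its own array in M1_OA vesicles and had no more than an upper limit in M0_sham vesicles.

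Ordered by signal, rno-miR-155-5p stood 17th of 758 on both M1_OA arrays, which put it at rank 17 among 42 and 45 detected miRNAs. It held rank 307 and 303 on the M0_sham arrays, where signals this low have no meaningful order. The scanner software's own per-miRNA value, the total gene signal, was 40.2 ± 4.13 and 34.1 ± 3.62 (the software's error on a single array) on the M1_OA arrays. On both M0_sham arrays it was listed at its floor of 0.1. By that value the arm ranked 25th of 60 and 30th of 56 miRNAs above the floor on the M1_OA arrays, lower than by the summed signal.

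rno-miR-155-3p, the opposite strand of the duplex, had no spot well above background on the 4 arrays (0 of 8 for each probe). Its summed signal was -9.30 and -9.01 on the M1_OA arrays, against -2.14 and -6.61 on the M0_sham arrays. All 4 values were negative, and they did not exceed the detection limit of any array. Its rank was 579 and 501 of 758 on the M1_OA arrays and 229 and 301 on the M0_sham arrays, an order among negative values. The total gene signal was at the floor of 0.1 on each of the 4 arrays. It could not enter the test, and no fold between groups or between arms is given, since its values are limits only.

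**Figure D1:**
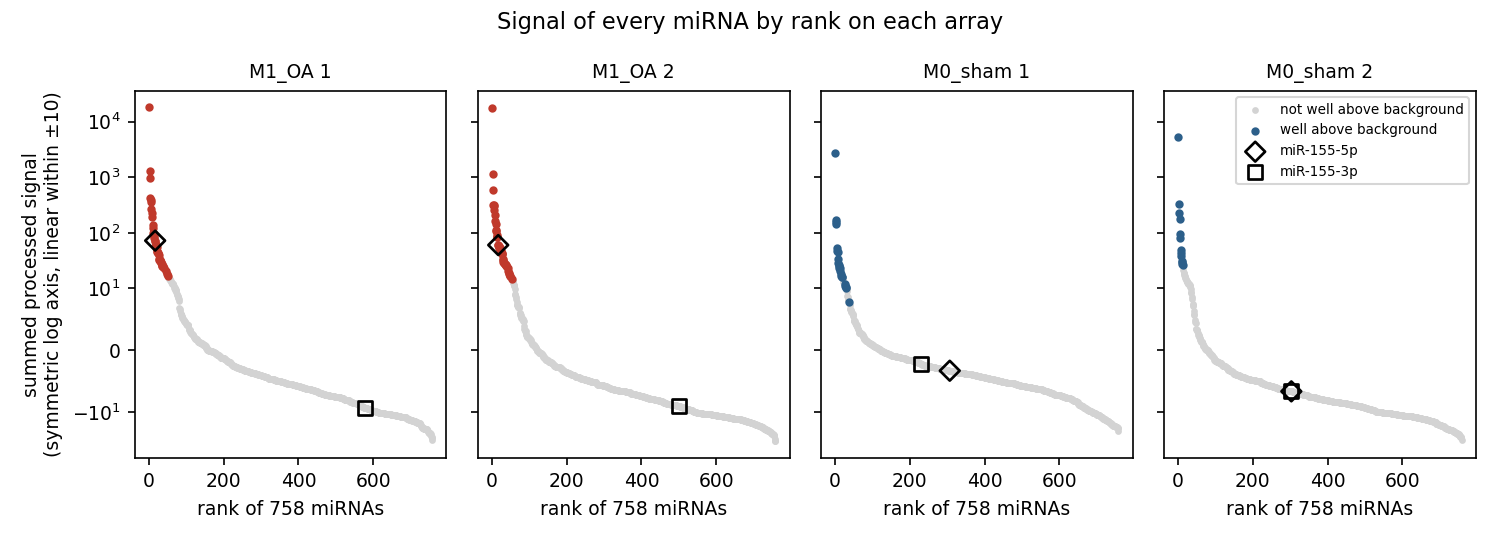
Every miRNA on the array in order of summed signal, 1 panel per array (M1_OA panels before M0_sham), with rank on the horizontal axis and signal intensity in arbitrary units on the vertical axis and both miR-155 arms marked. rno-miR-155-5p stands at rank 17 on both M1_OA arrays and at ranks 307 and 303 on the M0_sham arrays, while rno-miR-155-3p lies below 0 on each array. The vertical axis is logarithmic beyond 10 on either side of 0 and linear between, and coloured points are miRNAs well above background.

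The 5p signal came mostly from 1 of its 2 probes. The 18-base probe averaged 65.7 ± 4.92 (SD over 8 spots of the array) on M1_OA replicate 1 and 54.8 ± 4.98 (7 unmarked spots) on M1_OA replicate 2. On M0_sham replicates 1 and 2 it averaged -1.62 ± 0.922 and -2.77 ± 1.45. Its dimmest spot was 58.7 and 46.1 on the M1_OA arrays, and its brightest was -0.218 and 1.16 on the M0_sham arrays. How many other probes had such a gap between groups was not counted, so it is not shown to be particular to this probe. Before any subtraction its mean intensity was 130 and 117 on the M1_OA arrays, against 51.6 and 52.6 on the M0_sham arrays, with a local background of 32.1 and 31.3 on the M1_OA arrays and 32.3 and 30.6 on the M0_sham arrays. The software thus subtracted more than the local background on every array of both groups. All 8 spots were well above background on each M1_OA array and 0 were on each M0_sham array. Spots of a probe share the array and the labelled RNA, and their spread is not that of replicates.

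The 17-base probe, which lacks the terminal C, averaged 6.65 ± 2.40 (7 unmarked spots) and 5.52 ± 3.48 (6 unmarked spots) on the M1_OA arrays, against -1.67 ± 1.95 and -3.86 ± 1.46 on the M0_sham arrays. It was well above background in 1 of 8 and 0 of 8 spots on the M1_OA arrays, so by itself it would not have called the arm detected. The software's less strict flag, for a positive signal significantly above background, was set for 8 and 6 of these spots on the M1_OA arrays and for 0 and 0 on the M0_sham arrays. Its unmarked spots ran between 3.33 and 11.1 and between 1.03 and 10.4 on the M1_OA arrays, against M0_sham spots that reached 1.01 on replicate 1 and -1.88 on replicate 2. The 2 probes therefore disagreed on detection, although both had their higher values on the M1_OA arrays. The means of the 17-base probe there were under the medians of the negative-control spots, 10.8 and 7.21, which also read higher on the M1_OA arrays. Its values are therefore no separate evidence of rno-miR-155-5p. Such disagreement was common: of the 40 miRNAs detected on both M1_OA arrays, 21 had a probe that was not detected on an M1_OA array.

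The 3p probes gave no such pattern. The 19-base probe averaged -4.55 ± 5.73 and -4.34 ± 1.66 on the M1_OA arrays and -0.482 ± 1.91 and -3.14 ± 1.84 on the M0_sham arrays. The 18-base probe averaged -4.75 ± 3.34 and -4.68 ± 2.74 on the M1_OA arrays and -1.66 ± 0.737 and -3.46 ± 1.67 on the M0_sham arrays. Both probes were negative on average on all 4 arrays after the software's background subtraction, and the brightest 3p spot on the M1_OA arrays was 1.53.

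**Figure D2:**
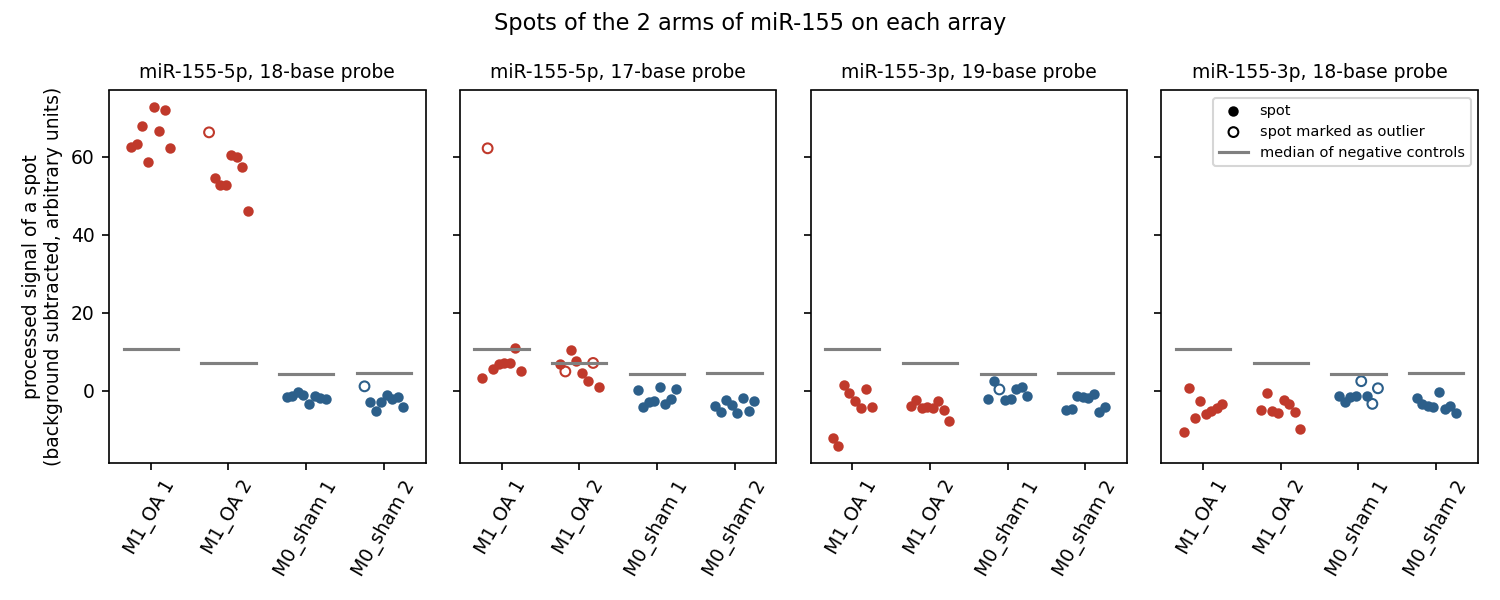
Signal of each spot in intensity units (vertical axis) for both probes of rno-miR-155-5p and both of rno-miR-155-3p, by array, with M1_OA left of M0_sham and outlier-marked spots drawn apart. The 18-base 5p probe is at 46.1 or above on the M1_OA arrays and at 1.16 or below on the M0_sham arrays, and the unmarked spots of the other 3 probes are at 11.1 or below, beside 1 marked spot at 62.2. Grey lines are the medians of the negative controls.

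Negative-control spots, which have no miRNA to bind, also read higher on the M1_OA arrays. The median of 434 such spots was 10.8 and 7.21 on the M1_OA arrays and 4.35 and 4.69 on the M0_sham arrays, and their highest reached 138 and 70.9 against 12.2 and 17.4. Of these control spots, 96 and 29 were well above background on the M1_OA arrays, and 42 and 2 on the M0_sham arrays. Only 5 and 2 of the 434 control spots on the M1_OA arrays were brighter than the dimmest spot of the 18-base 5p probe. The 17-base 5p probe averaged less than the control median on every array. The part of this background in the 5p result was not tested.

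Detection of a single arm was not particular to miR-155. The array held both arms of 281 hairpins, and 30 of these had an arm detected on both M1_OA arrays. Of the 30, 16 had the 5p arm alone, miR-155 among them, 14 had the 3p arm alone, and 0 had both. On both M0_sham arrays 5 hairpins had the 5p arm alone, 1 the 3p arm alone and 0 both. Hairpins with the 3p arm alone on the M1_OA arrays included miR-22, miR-223 and miR-23a, and also miR-139, miR-211 and miR-32. Whether the detected arm was the main strand of each hairpin was not examined.

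The difference in rno-miR-155-5p between groups was tested with limma on log2 signals, after scaling by the 75th percentile of each array, taken over the 11 miRNAs detected on all 4 arrays. Scaled values under 7.90, the lowest scaled signal of any detected miRNA, were set to that floor. On this scale rno-miR-155-5p was 33.9 and 41.4 on the M1_OA arrays, and both M0_sham arrays were at the floor. In log2 that is 5.08 and 5.37 for M1_OA, against 2.98 and 2.98 for M0_sham. The M1_OA minus M0_sham difference was 2.25 ± 0.16 (SE, n = 2 arrays each; 95% interval 1.76 to 2.73; limma, Benjamini-Hochberg adjusted p = 0.00207 over 41 miRNAs). Since both M0_sham values are the floor itself, the size of this difference depends on the floor, and the M0_sham arrays added no spread of their own. The interval does not cover the choice of floor: with each array's own floor the difference was 0.56 (limma, adjusted p = 0.510). rno-miR-155-5p also entered the test only through detection on the M1_OA arrays, a selection that favours a positive difference. An exact permutation test of 2 arrays against 2 could not go below p = 0.333.

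Scaling narrowed the contrast. The factors by which signals were divided were 2.14 and 1.46 for the M1_OA arrays and 0.490 and 0.656 for the M0_sham arrays, so the detection limits became 7.90 and 10.0 on the M1_OA arrays and 15.9 and 40.7 on the M0_sham arrays. The value of 33.9 on M1_OA replicate 1 was thus below the limit of M0_sham replicate 2, and the 41.4 on M1_OA replicate 2 was just above it. With each M0_sham array's own limit in place of its value, the lower bound of the fold for rno-miR-155-5p was 1.47. On signals with no scaling it was 4.58. The scaled bound is the same contrast as the log2 difference of 0.56 with each array's own floor, which did not pass (limma, adjusted p = 0.510). It is therefore not an established minimum. M0_sham replicate 2, the array with fewest detected miRNAs, weighed most on the scaled bound, which was 2.81-fold without it. Without M0_sham replicate 1 it was 1.06-fold, and without M1_OA replicate 1 or 2 it was 1.63-fold or 1.33-fold. The bounds replace dim signals by the lowest detected signal of the same array, and then take means of log2 values.

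Direction turned under 1 background correction. With normexp correction (offset 50) of the raw signals followed by the same scaling, rno-miR-155-5p was 112 and 142 on the M1_OA arrays, against 186 and 154 on the M0_sham arrays, a log2 difference of -0.42 (limma, adjusted p = 0.123). The median of all miRNAs on that scale was 68.1 and 92.7 on the M1_OA arrays, against 187 and 156 on the M0_sham arrays, so the 5p arm lay above the median of its array in M1_OA and at about the median in M0_sham. Before scaling, the normexp values were 198 and 185 on the M1_OA arrays, against 112 and 112 on the M0_sham arrays, where the median miRNA was at 120 and 120 and at 113 and 113. This fit, added after the scaled one had been seen, gave a difference of 0.62 (limma, adjusted p = 0.00317).

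**Figure D3:**
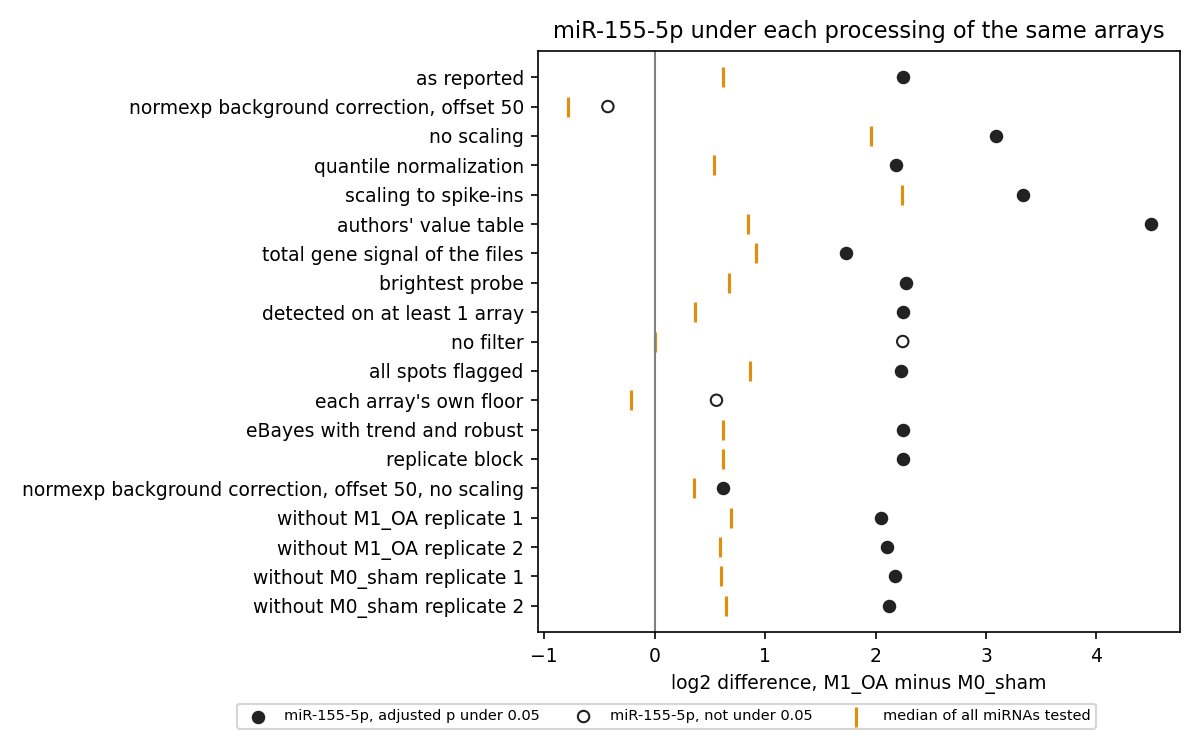
Log2 difference of rno-miR-155-5p, M1_OA minus M0_sham (horizontal axis), under each way of processing the arrays (vertical axis), with fits that passed an adjusted p of 0.05 and those that did not drawn as filled and open points and the median of the tested miRNAs as a bar. Differences were above 0 in all fits shown except normexp correction with scaling, at -0.42.

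The call is to be read against the other miRNAs. Of the 41 tested, 22 were higher in M1_OA vesicles (53.7%), 4 were lower and 15 did not pass. Of the 24 tested miRNAs that, like rno-miR-155-5p, were detected on both M1_OA arrays and on no M0_sham array, 19 were higher (79.2%), so a higher call was the usual outcome for a miRNA with this detection pattern. Both M0_sham arrays were at the floor for 16 of the 24, and 14 had a bound above 1-fold. Among the 41, rno-miR-155-5p ranked 8th by log2 difference and 9th by p, and it was 9th by scaled bound among the 24.

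The authors' deposited table of log2 values, whose normalization between arrays is not given in the sources used here, lists rno-miR-155-5p at 1.97 and 2.01 for M1_OA. For M0_sham it lists -3.32, the table's floor and the median of every column, and -1.68. The value of -1.68 ranked 45th of 63 miRNAs above the floor on M0_sham replicate 2, where 0 spots of either 5p probe were well above background in the scanner file. In that deposited table the M1_OA values ranked 17th of 60 and 19th of 64 above the floor. The difference was 4.49 ± 0.69 (SE, n = 2 arrays each; 95% interval 2.30 to 6.68; limma, adjusted p = 0.0176). It lists rno-miR-155-3p at the floor on all 4 arrays.

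Other miRNAs known to respond to LPS in macrophages were mostly below detection. A list of 20, all of them on the array, included both miR-155 arms. Of these, 4 were detected on at least 1 array and 3 could be tested, namely rno-miR-155-5p, rno-miR-146a-5p and rno-miR-21-5p. All 3 were higher in M1_OA vesicles and 0 were lower. Each of them entered the test through detection in M1_OA vesicles alone, a pattern for which 79.2% of miRNAs were called higher, so the count says nothing particular to the list.

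rno-miR-146a-5p is an NF-κB-induced miRNA that in mouse and human represses the Toll-like receptor adaptors TRAF6 and IRAK1. Its signal was 191 and 107 on the M1_OA arrays, against -1.35 and -4.84 on the M0_sham arrays. These groups did not overlap, which held for each of the 24 miRNAs detected on both M1_OA arrays and on no M0_sham array. The log2 difference was 3.36 (limma, adjusted p = 0.00104), with a bound of at least 3.18-fold higher in M1_OA vesicles. rno-miR-21-5p, which represses the translation inhibitor PDCD4, had 387 and 320 on the M1_OA arrays, against 3.10 and 0.122 on the M0_sham arrays. It differed by 4.66 on the log2 scale (limma, adjusted p = 0.00102), with a bound of at least 7.85-fold higher in the M1_OA group. The scaled bound of rno-miR-155-5p, 1.47-fold, was the lowest of the 3.

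rno-miR-212-3p, processed from a precursor next to that of miR-132, was detected on M1_OA replicate 2 alone and could not be tested. Its signal was 10.0 and 23.2 on the M1_OA arrays and 4.11 and -1.99 on the M0_sham arrays. The remaining members were not detected on any array. Among these, rno-miR-210-3p, known for its induction by hypoxia, had 13.6 and 8.97 on the M1_OA arrays and -9.62 and -14.6 on the M0_sham arrays. rno-miR-125a-5p had 9.50 and 5.46 on the M1_OA arrays and -1.25 and -4.57 on the M0_sham arrays. Undetected members did not all go this way: rno-miR-132-3p had -6.76 and -8.10 on the M1_OA arrays and -3.72 and -5.78 on the M0_sham arrays. rno-miR-147 and rno-miR-146b-5p, both known to be LPS-induced in macrophages, did not exceed 1.06 on any array.

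Markers of cell types were read beside these values, on arrays where 55 of the 758 miRNAs were detected at least once. Of 6 myeloid miRNAs on the array, 3 were detected, including rno-miR-146a-5p and rno-miR-21-5p, which are also on the LPS list. rno-miR-223-3p, abundant in myeloid cells, had 59.7 and 43.7 on the M1_OA arrays and 23.1 and 16.6 on the M0_sham arrays. It was detected on both M1_OA arrays and on 1 M0_sham array. Its scaled log2 difference was -0.25 (limma, adjusted p = 0.576), and with no scaling it was 1.38 (limma, adjusted p = 0.00932). rno-miR-142-3p, which blood cells generally carry, was not detected, with 1.22 and -1.83 on the M1_OA arrays and 0.143 and -3.13 on the M0_sham arrays. miR-155 is also made by activated lymphocytes, and 0 of 4 markers of B and T lymphocytes were detected. Their values went both ways. rno-miR-150-5p had -9.84 and -8.79 on the M1_OA arrays and 0.194 and -3.11 on the M0_sham arrays. rno-miR-181a-5p had 5.67 and 2.10 on the M1_OA arrays and -5.79 and -7.95 on the M0_sham arrays, and rno-miR-181b-5p was also higher on the M1_OA arrays. None of 3 erythroid, 3 liver and serum, 4 stromal or 2 endothelial markers was detected either (0 in each list). With so few miRNAs detected in all, a count of 0 in lists this short says nothing about the source of the vesicles.

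The miRNAs whose scaled log2 values over the 4 arrays were most like those of rno-miR-155-5p were found by the Euclidean distance of centred profiles. In order they were rno-miR-24-3p at 0.123, rno-miR-483-5p at 0.170, rno-miR-134-5p at 0.240, rno-miR-22-3p at 0.252 and rno-miR-23b-3p at 0.276. The nearest, rno-miR-24-3p, had signals of 80.2 and 61.0 on the M1_OA arrays, against -4.79 and -8.58 on the M0_sham arrays, and a log2 difference of 2.33 (limma, adjusted p = 0.0012). rno-miR-483-5p had 226 and 208 on the M1_OA arrays, against 12.3 and 18.7 on the M0_sham arrays, and was the only 1 of the 5 that was not at the floor on both M0_sham arrays. Likeness over 4 arrays of which 2 are at the floor rests mostly on the M1_OA signal, and profiles of this shape were common among the 24.

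**Figure D4:**
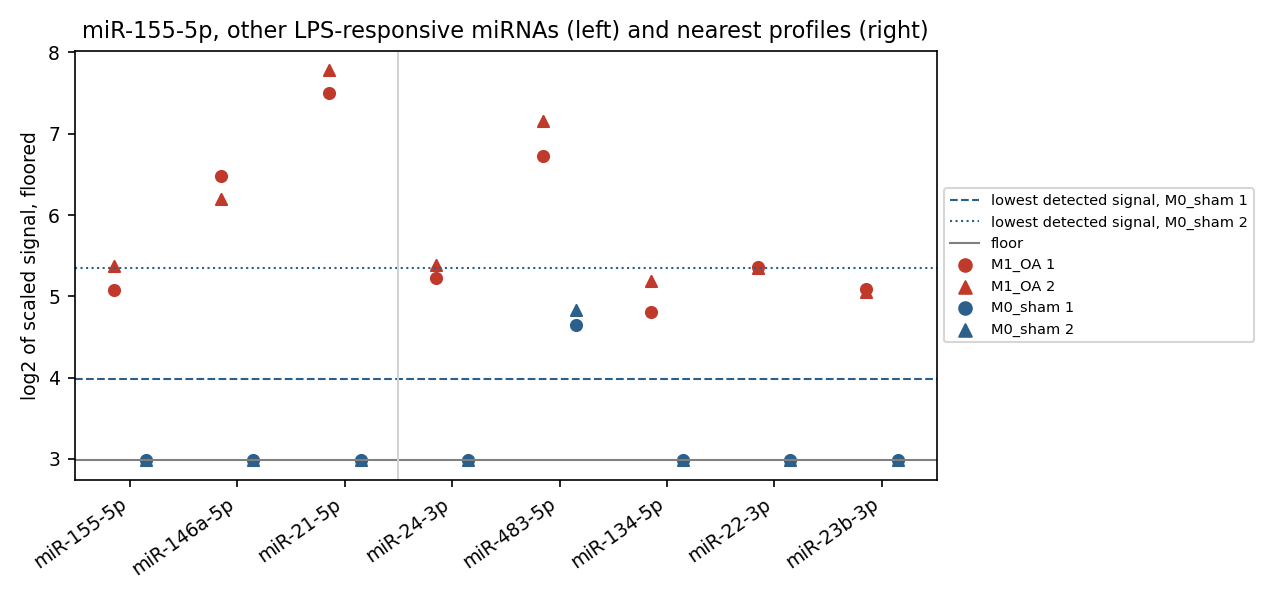
Log2 of scaled, floored signal (vertical axis) on each array, M1_OA left of M0_sham, for the 3 tested LPS-list miRNAs and the 5 miRNAs nearest in profile to rno-miR-155-5p, with horizontal lines at the floor (2.98) and at the lowest detected signal of M0_sham replicates 1 (3.99) and 2 (5.35). rno-miR-155-5p is at 5.08 and 5.37 on the M1_OA arrays, around the limit of M0_sham replicate 2. The M1_OA points of rno-miR-146a-5p and rno-miR-21-5p lie above every line, and their M0_sham points are at the floor. rno-miR-483-5p alone has M0_sham points off the floor.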

How the data were processed

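The members and the miRNA lists were chosen with earlier results of these data known. Spot intensity was deposited in scanner files. Per the file headers these came from Agilent Feature Extraction 10.7.1.1, and the processed intensity was background-subtracted with spatial detrending and not scaled between arrays. The labels' protocols give mirVana extraction and 0.2 µg RNA per array, and describe a cRNA amplification kit whose use on these miRNA arrays is unclear. The authors also deposited a table of log2 values, with a floor at -3.32; its scale is log2, and its normalization is not given in the sources used here.

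Unmarked spots were averaged per probe and probes summed per miRNA (1806 probes, 12128 spots, 0 saturated). Arrays were scaled to the 75th percentile over 11 miRNAs, floored at 7.90 and taken to log2. The 41 miRNAs detected on both arrays of a group were fitted with limma 3.58.1 (lmFit, eBayes, two-sided) in R 4.3.3, with Benjamini-Hochberg adjustment and a threshold of 0.05. The fit was checked on simulated data, but no outcome of that check is given here and no result rests on it. Mature, hairpin and locus entries came from RefSeq (GRCr8), both arms matching by name. Named miRNAs are both arms, detected LPS-list members and the 5 nearest profiles. Others were chosen after their values were seen: rno-miR-210-3p, rno-miR-125a-5p, rno-miR-132-3p, rno-miR-146b-5p, rno-miR-147, rno-miR-181a-5p, rno-miR-181b-5p and the hairpins given as examples. Alternatives covered background correction, scaling, filter, floor, probe summary, the authors' table, a replicate block and leaving out each array.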

Additional observations from a re-analysis of the deposited data

How the results depend on the processing

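For rno-miR-155-5p, 17 of 18 alternatives kept the direction and 15 an adjusted p under 0.05 (limma). Detection on at least 1 array, no filter, another variance model and the replicate block could not change the difference, which stayed 2.25. Normexp correction with scaling gave -0.42, each array's own floor 0.56 (limma, adjusted p = 0.510), and no detection filter 2.25 (limma, adjusted p = 0.191 over 758). Leaving out 1 array gave 2.05 to 2.18, with scaling and floor set anew each time. The lone array left in a group was assumed to vary like the others. M0_sham values of rno-miR-155-5p were at the floor in each of these fits, so leaving out an M0_sham array could not test the M0_sham level. Counts of higher and lower calls, 22 and 4 as reported, were 4 and 25 with normexp and scaling, 2 and 0 with no filter (21 and 10 by unadjusted p), and 4 and 2 with each array's own floor. Lower calls were 0 with no scaling, with scaling to spike-ins and with normexp unscaled (0 also at an unadjusted p under 0.05 in each), 2 with the software's total gene signal, 8 with detection on at least 1 array and 7 with the replicate block. With 1 array left out, higher calls ran between 13 and 21 and lower calls between 0 and 9: 13 and 9 without M0_sham replicate 2, and 21 and 0 (3 unadjusted) without M1_OA replicate 1. The median log2 difference over tested miRNAs was 0.62 as reported, 1.96 with no scaling, 2.24 with spike-ins and -0.79 with normexp and scaling. Why these differ was not tested. Same-numbered arrays deviated together with a correlation of 0.308, but 2 pairs do not establish pairing; with the replicate block rno-miR-155-5p passed (limma, adjusted p = 3.08e-07), with 19 higher calls. The 75th percentile over all miRNAs was not run, since it was not above 0 on every array. Signals near background are limits, so group differences in rno-miR-155-3p were not detectable here.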

Other observations

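A single spot of the 17-base probe of rno-miR-155-5p, at row 29 and column 33, read 62.2 on M1_OA replicate 1, while the other 7 spots of that probe on the array were at most 11.1. The same position read 4.97 on M1_OA replicate 2, and -4.04 and -5.46 on the M0_sham arrays. The scanner software marked it as an outlier. Its 6 nearest spots belong to other miRNAs, ran between -4.70 and 39.5, and 4 of them were well above background. With marked spots kept, the summed signal of rno-miR-155-5p was 79.3 and 61.9 on the M1_OA arrays, against -3.30 and -6.14 on the M0_sham arrays.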
